A study of Homo sapiens with 8 samples.

Results

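The genes described here encode the proteins of the cytosolic ribosome, together with the few genes that carry the same symbols. They were selected by name, as RPL, RPLP or RPS followed by a digit, or RPSA. The RPS6K kinases, of which 10 were listed, were left out, and 0 pseudogenes matched. The rule took 84 of the 15852 listed genes, of which 46 encode proteins of the large (60S) subunit and 31 encode proteins of the small (40S) subunit. The other 7 were 6 paralogs of ribosomal proteins (RPL3L, RPL7L1, RPL22L1, RPL26L1, RPL36AL and RPS27L) and RPS19BP1, a protein named for binding RPS19 that is not part of the ribosome. The ribosomal proteins FAU and RACK1 do not have such symbols and were described beside the 84.

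RNA was sequenced from KYSE150, an established line of human esophageal squamous cell carcinoma, in 4 libraries with knockdown of BOLA3-L, the isoform of BOLA3 that holds exon 3, and in 4 control libraries. The series title writes the knockdown as shBOLA3-L, and no other genotype or treatment separates the groups in the labels. All libraries came from this 1 line, so they hold no second genetic background. The sources used here give neither the hairpin sequence nor the control construct. Nor is it stated whether replicates came from separate cultures, so p-values measure the spread between these libraries, which may be technical.

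A human ribosome joins a small subunit, which binds the mRNA and reads its codons, to a large subunit, which forms the peptide bond and releases the chain through an exit tunnel. Each subunit holds ribosomal RNA and a fixed set of proteins, most of which are present as a single copy. Growing tumour cells devote much of their mRNA to these proteins. Their mRNAs typically begin with a C followed by a run of pyrimidines, the terminal oligopyrimidine tract, through which mTORC1 and LARP1 control their translation. RNA-seq of total polyA RNA, scaled by library, measures these mRNAs relative to the other mRNAs counted. It does not give their amount per cell, their translation or the number of ribosomes.

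The transcription start regions are shown for the 8 genes on which the results turn, because the tract is the sequence feature that the family shares. Each window holds 10 bases before the annotated start and 20 bases from it, read from RefSeq on GRCh38.p14, and capitals mark the run of pyrimidines that begins with C at the start. The windows lie at chr4:108620566-108620595 (plus strand) for RPL34, chr1:153990752-153990781 (plus) for RPS27, chr11:809957-809986 (plus) for RPLP2, chr19:41860245-41860274 (plus) for RPS19, chr6:132814559-132814588 (plus) for RPS12, chrX:119791611-119791640 (minus) for RPL39, chr12:56041908-56041937 (plus) for RPS26 and chr14:49620607-49620636 (minus) for RPL36AL.
RPL34: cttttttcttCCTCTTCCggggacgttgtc
RPS27: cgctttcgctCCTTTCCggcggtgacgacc
RPLP2: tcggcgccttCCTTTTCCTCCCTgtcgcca
RPS19: ccccgtcgttCCCTTTCCCCTggctggcag
RPS12: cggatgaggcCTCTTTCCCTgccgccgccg
RPL39: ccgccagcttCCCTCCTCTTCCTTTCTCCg
RPS26: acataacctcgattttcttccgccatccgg
RPL36AL: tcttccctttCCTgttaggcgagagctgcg
The first 6 genes rose after knockdown and have such a tract of 5 or more bases at the start. RPS26 and RPL36AL fell, and at their annotated starts the run is absent in RPS26 and short in RPL36AL. Within 10 bases of these starts, however, both windows hold a run of 5 or more pyrimidines that begins with C. RPS28 and RPS4X, which are not shown, rose as well, and no such run begins at their annotated starts. Whether the tract goes with the change was not tested. RefSeq also lists another start for RPL34 and for RPS19, at which no tract begins.

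Promoter windows of 300 bases (250 before the start and 50 after it) were found for 67 of the 84 genes, 62 of them subunit proteins. A tract of at least 5 pyrimidines beginning with C stood at an annotated start in 46 of these 62 genes (74.2%), against 1404 of 27305 genes in the whole table (5.14%). Within 10 bases of a start it stood in 91.9% of the subunit genes, against 38.4% of all genes. Among subunit genes with a promoter window it began at the start in 17 of 19 that rose (89.5%) and in 28 of 40 that did not pass the test (70.0%), a difference that was not tested. Within 10 bases of a start the shares lay close together, at 18 of 19 that rose (94.7%) and 37 of 40 that did not pass (92.5%). Of the 5 paralogs with a window, 1 had the tract at a start and 2 had it within 10 bases of one.

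Other letters were searched on both strands of the same windows. The ETS letters CCGGAAG were in 22 of 62 subunit gene windows (35.5%), against 12.2% of all genes, and the palindrome CTCGCGAG was in 9.68%, against 1.23%. The YY1 letters AAGATGGC were in 9.68%, against 3.52%. The E-box CACGTG was in 6.45%, against 8.77%, and TATAAA was in 8.06%, against 14.0%. The ETS letters were in 10 of 19 subunit genes that rose and 12 of 40 that did not pass, and the palindrome in 2 and 3 of them and in RPL17, which fell; these differences were not tested. As an example of each, 170 bases are shown for RPL34 (chr4:108620426-108620595, plus strand) and for RPS19 (chr19:41860105-41860274, plus strand). Capitals mark the pyrimidine tract at the start and, in RPL34, the ETS letters on the other strand, which begin inside the tract after the start, or, in RPS19, the palindrome, which occurs at 2 places upstream.
RPL34: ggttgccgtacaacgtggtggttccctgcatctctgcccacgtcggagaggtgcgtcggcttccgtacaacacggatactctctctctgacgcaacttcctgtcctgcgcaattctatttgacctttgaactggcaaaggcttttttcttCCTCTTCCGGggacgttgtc
RPS19: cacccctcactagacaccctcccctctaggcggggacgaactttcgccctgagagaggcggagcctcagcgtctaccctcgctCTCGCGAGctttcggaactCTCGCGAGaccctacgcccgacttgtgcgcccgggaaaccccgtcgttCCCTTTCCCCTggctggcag
A match is a run of letters and not a measured binding site.

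Libraries held 31178036 to 35147860 counts, so 3 counts were worth 0.0854 to 0.0962 CPM, the count divided by the library total and scaled by 1e6. Levels below are CPM scaled by TMM library factors unless FPKM is named. BOLA3 itself, counted over all its isoforms, stood at 6.06, 6.64, 6.33 and 7.29 CPM in BOLA3-L knockdown replicates 1 to 4, against 21.6, 19.1, 20.5 and 21.8 CPM in control replicates 1 to 4. Markers of squamous epithelium summed to 3770 to 4248 CPM in knockdown libraries and 5837 to 5913 CPM in control libraries, and 10 of the 11 tested fell. Fibroblast markers summed to 4.53 to 7.26 CPM in knockdown and 9.94 to 14.8 CPM in control libraries, endothelial markers to 1.96 to 2.56 and 1.00 to 1.91 CPM, and leukocyte markers to 73.9 to 79.5 and 77.7 to 84.7 CPM, most of it CD68. Of the 7 listed fibroblast, 7 leukocyte and 5 endothelial markers, 0 were at 0 in all libraries, and the part of other cells in the changes below was not tested. In such bulk RNA, fewer cells of a type and less RNA per cell cannot be told apart.

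Ribosomal protein mRNAs were slightly higher after BOLA3-L knockdown, and none moved by as much as 2-fold. Of the 82 members with enough counts to be tested, 23 rose (28.0%) and 3 fell (3.66%) at an adjusted p under 0.05 (edgeR, Benjamini-Hochberg over all 11841 tested genes), and 56 did not pass. Over all tested genes 15.0% rose and 15.6% fell. The median log2 change was 0.06 over the members and 0.00 over all tested genes, and the members ran from -0.18 (RPL17) to 0.29 (RPS12). All 4 knockdown libraries stood above all 4 controls for 13 members (15.9%) and below them for 2 (2.44%), against 14.6% and 15.6% of all tested genes. By that measure the share above lay near the background and the share below lay under it.

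The count of members that rose depended on the libraries. Without BOLA3-L knockdown replicate 1 it was 43, with 4 that fell, against 21.2% of all genes that rose and 21.5% that fell. It was 11 without knockdown replicate 2, 14 without control replicate 1, 10 without control replicate 2 and 14 without control replicate 3. The count that fell was 1 without knockdown replicate 3 or without any single control replicate. For these other libraries the share of all tested genes called is not given here. A loss of calls particular to the members therefore cannot be told from a loss over all genes. Of the 23 members that rose, 19 also rose without knockdown replicate 1, and the 3 that fell also fell. In each of the 8 fits that left out a single library, 8 members rose, among them RPL23A, RPL34, RPLP2, RPS3A, RPS15A, RPS19 and RPS27. 0 falls were called in all 8 of these fits.

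**Figure D1:**
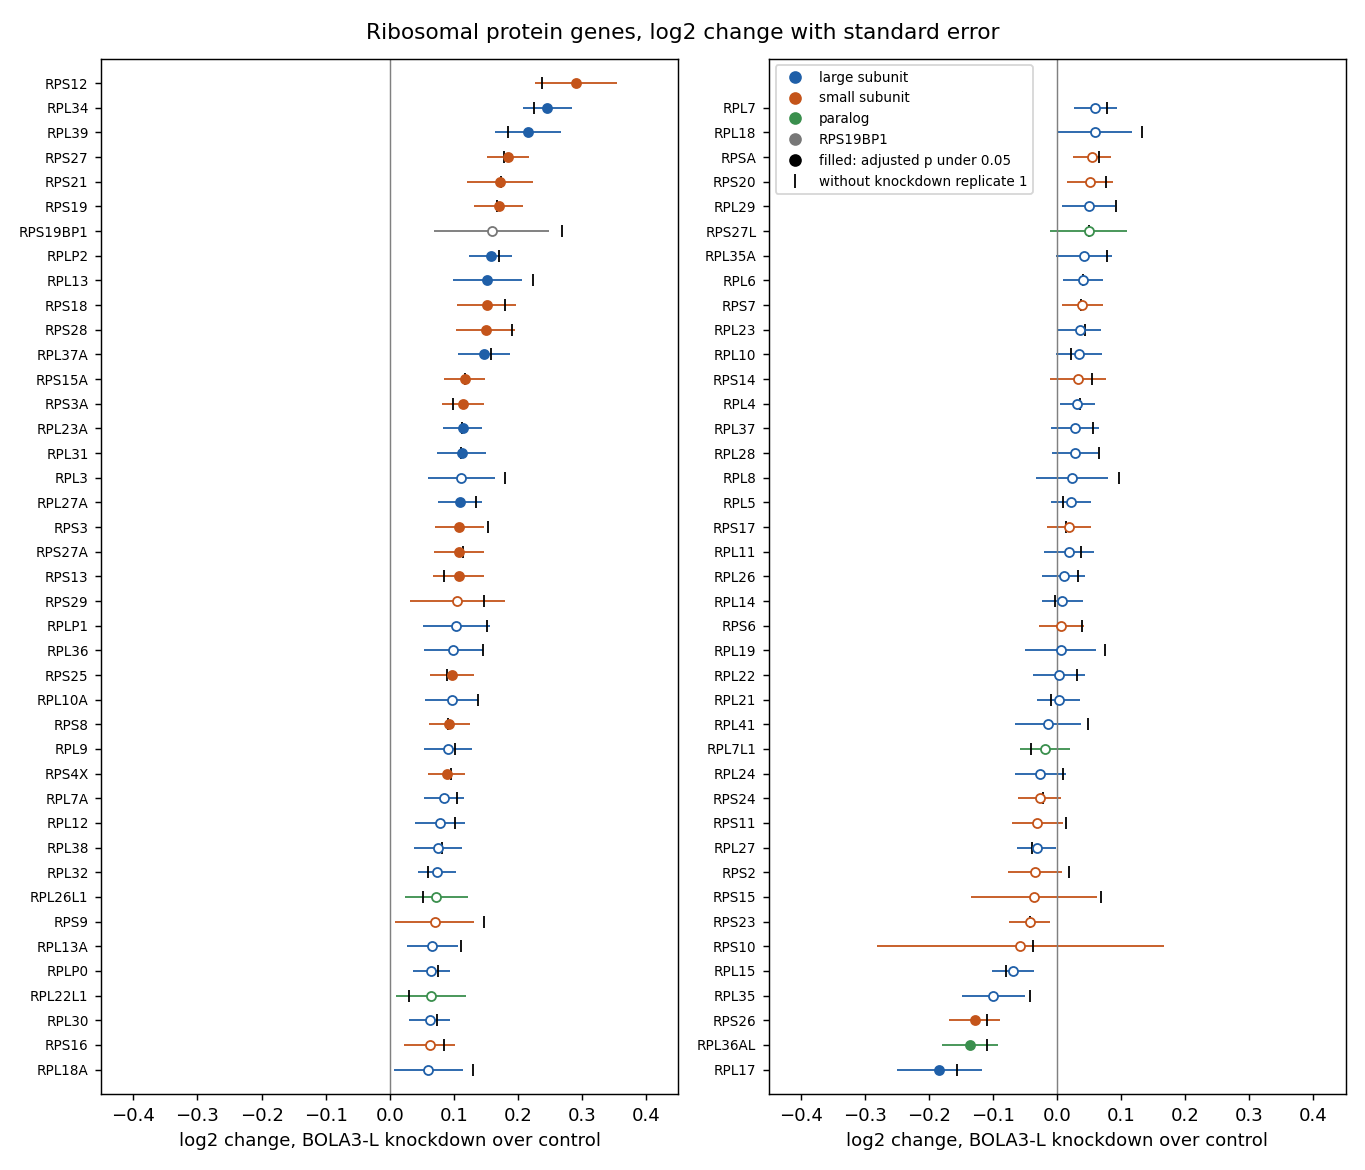
Log2 change (BOLA3-L knockdown over control) of 81 of the 82 tested members with its standard error, sorted from RPS12 (0.29) to RPL17 (-0.18), coloured by class and filled where the adjusted p was under 0.05. Black ticks give the change without BOLA3-L knockdown replicate 1, and most points lie right of 0.

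Taken as a share of all counts, the members summed to 6.33, 6.82, 6.56 and 6.67% in knockdown replicates 1 to 4, against 6.32, 6.14, 6.27 and 6.36% in control replicates 1 to 4. Knockdown replicate 1 lay among the controls and the other 3 knockdown libraries lay above all controls. The means were 6.60 ± 0.206% in knockdown and 6.27 ± 0.0971% in control libraries (SD, n = 4 each), a ratio of 1.05, or 1.07 without knockdown replicate 1. Large subunit genes held 4.10 ± 0.135% of counts in knockdown and 3.90 ± 0.0618% in control libraries, and small subunit genes held 2.45 ± 0.0705% and 2.32 ± 0.0355%.

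**Figure D2:**
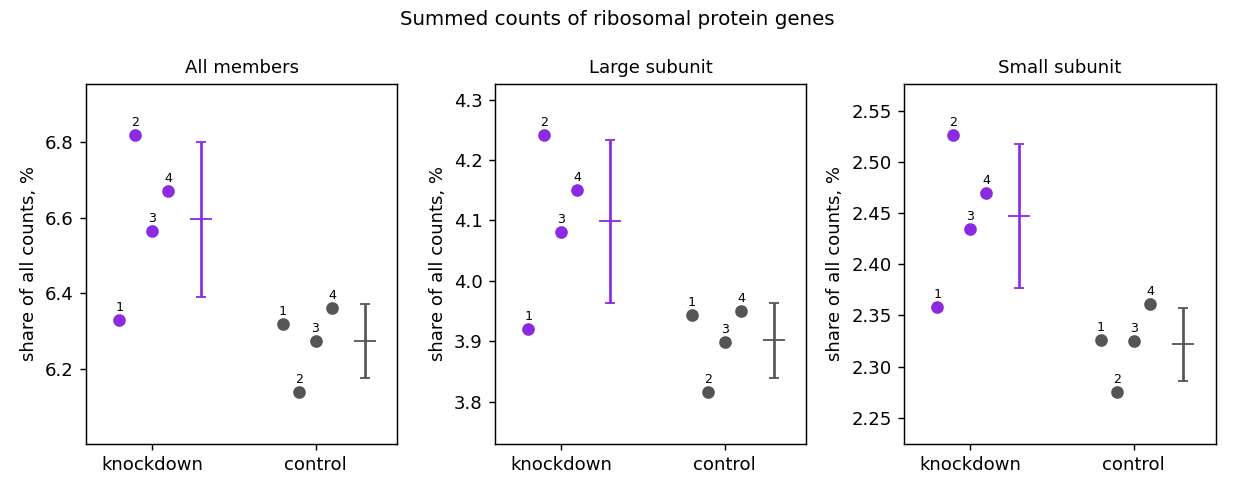
Summed counts of ribosomal protein genes as a percentage of all counts in each library, for all members and for each subunit, with replicate numbers, means and SD. Knockdown replicate 1 (6.33% over all members) lies among the controls (6.14 to 6.36%), and knockdown replicates 2 to 4 lie above them.

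With all libraries 15 of the 23 rises were small subunit genes, but without knockdown replicate 1 the large subunit had more rises, 25 against 17, and with offsets corrected for GC content and length, an alternative chosen after seeing the data, it had 18 against 16. Of 31 small subunit genes tested, 15 rose (48.4%) and 1 (RPS26) fell, against 15.0% and 15.6% of all tested genes, with a median log2 change of 0.09. The count that rose was 6 without knockdown replicate 2 or without control replicate 2, 8 without control replicate 1 and 9 without control replicate 3. Of 45 tested large subunit genes 8 rose (17.8%) and 1 (RPL17) fell, with a median of 0.06. The count that rose was 5 without knockdown replicate 2 or control replicate 3 and 4 without control replicate 2. Whether the subunits differed was not tested.

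Proteins of the 40S head, the part that turns as tRNAs move, gave 6 rises among 11 genes, RPS12, RPS18, RPS19, RPS25 and RPS27A among them, against 15.0% of all tested genes. The count was 3 without knockdown replicate 2 or control replicate 2, as the calls of RPS18, RPS25 and RPS27A were lost in each of these fits, and it was 4 without control replicate 1 or 3. RPS18 (log2 change 0.15) also lost its call without knockdown replicate 1 or control replicate 1 (highest adjusted p 0.0836), and RPS25 (0.10) without knockdown replicate 3 or control replicate 3 or 4 (highest adjusted p 0.120). RPS19 (identifier 6223), the gene most often mutated in Diamond-Blackfan anaemia, stood at 434, 436, 434 and 419 CPM in knockdown replicates 1 to 4, against 374, 359, 393 and 406 CPM in controls 1 to 4. Every knockdown library lay above every control, and the controls spread more widely than the knockdown libraries. A log2 change of 0.17 ± 0.0379 (SE) passed the test (edgeR adjusted p 0.00221).

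RPS12 (identifier 6206), a protein of the beak of the 40S head, had the largest rise among the members but also wide spreads. It stood at 549, 491, 483 and 458 CPM in knockdown and 375, 373, 414 and 458 CPM in control libraries. Control replicate 4 was level with knockdown replicate 4, so the groups overlapped, and knockdown replicate 1 was the highest library. On the log2 scale its change was 0.29 ± 0.0639 (SE, edgeR adjusted p 0.00309), and without knockdown replicate 1 it was 0.24 (edgeR adjusted p 0.0767) and did not pass. RPS12 fell outside the rule for named genes and was chosen after its values were seen.

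RPS27A, translated as a fusion with ubiquitin, stood at 374, 386, 360 and 390 CPM in knockdown and 341, 334, 355 and 371 CPM in control libraries. Knockdown replicate 3 lay under control replicate 4. The change of 0.11 on the log2 scale passed (edgeR adjusted p 0.0413), but the call was lost without any of 5 libraries, which were knockdown replicates 2 and 4 and control replicates 1, 2 and 3 (highest adjusted p 0.143). With all libraries the call was also lost in the limma fit with no minimum FPKM (limma adjusted p 0.0520). FAU, which encodes a ribosomal protein made as a fusion with a ubiquitin-like protein, stood at 158, 203, 194 and 198 CPM in knockdown and 173, 168, 182 and 191 CPM in control libraries (log2 change 0.08, edgeR adjusted p 0.397). Without knockdown replicate 1, in which it was lowest, FAU rose by 0.15 on the log2 scale (edgeR adjusted p 0.000131). RACK1, a scaffold on the 40S head, did not pass (log2 change -0.02, edgeR adjusted p 0.577).

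Of 6 genes at the mRNA exit channel 3 rose (RPS21, RPS27 and RPS28) and RPS26 fell, against 15.0% and 15.6% of all tested genes. Without knockdown replicate 2 or control replicate 1 or 2 only RPS27 rose and 0 fell. RPS28 stood at 207, 240, 229 and 226 CPM in knockdown and 191, 201, 206 and 215 CPM in control libraries (log2 change 0.15, edgeR adjusted p 0.0183), and its call was also lost without knockdown replicate 3 (highest adjusted p 0.0848). With all libraries RPS28 did not pass in the limma fit with no minimum FPKM (limma adjusted p 0.0506). RPS27 (identifier 6232), a zinc finger protein of the small subunit, stood at 577, 583, 551 and 564 CPM in knockdown replicates 1 to 4 and 512, 487, 509 and 495 CPM in controls 1 to 4. The groups were separated by more than the spread within either, with a log2 change of 0.18 ± 0.0326 (SE, edgeR adjusted p 0.000312). Of its transcript sequence, 58.3% also occurs in other annotated genes, so its counts are uncertain to that extent. RPSA, the laminin receptor protein of the 40S, stood at 1422, 1481, 1427 and 1467 CPM in knockdown and 1387, 1379, 1389 and 1427 CPM in control libraries (log2 change 0.05, edgeR adjusted p 0.172). RPSA did not pass with all libraries, but passed without knockdown replicate 1 (edgeR adjusted p 0.0219) and in 2 of the 3 limma fits on log2 FPKM (limma adjusted p 0.0489 and 0.0344).

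The small subunit body gave further rises of the same size. RPS15A, near the centre of the 40S, stood at 647, 656, 638 and 644 CPM in knockdown and 582, 579, 603 and 619 CPM in control libraries (log2 change 0.12, edgeR adjusted p 0.00934). RPS3A, a protein of the platform, stood at 586, 565, 557 and 555 CPM in knockdown and 533, 513, 515 and 530 CPM in control libraries (0.11, edgeR adjusted p 0.0109). In both genes the groups did not overlap, but 80% of the RPS3A sequence is shared with other genes. RPS6, the target of the S6 kinases downstream of mTORC1, stood at 933, 1043, 992 and 1028 CPM in knockdown and 1017, 982, 995 and 984 CPM in control libraries. Its groups overlapped, with a log2 change of 0.01 (edgeR adjusted p 0.910) that was below 0 without knockdown replicate 2 or 4.

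In the large subunit, RPL34 (identifier 6164, chr4:108620576-108630484) had the smallest p of all members. It stood at 192, 184, 176 and 181 CPM in knockdown replicates 1 to 4, against 157, 150, 152 and 158 CPM in controls 1 to 4. The lowest knockdown library lay well above the highest control, and the knockdown mean of 183 ± 6.47 CPM was 1.19-fold the control mean of 154 ± 4.0 CPM (SD, n = 4 each). This was a log2 change of 0.25 ± 0.0382 (SE, edgeR adjusted p 8.62e-05), and it was 0.23 without knockdown replicate 1 (edgeR adjusted p 2.02e-08). Only 5.26% of the RPL34 sequence is shared with other genes, and its antisense gene RPL34-AS1 shares 0 bases of its exons in GENCODE v29.

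The stalk, which recruits the elongation factors, consists of RPLP0, RPLP1 and RPLP2 on a base that includes RPL12. In the main edgeR fit of all libraries, RPLP2 (identifier 6181) was the only gene of these 4 to rise, against 15.0% of all tested genes. Without knockdown replicate 1, 3 rose, against 21.2% of all tested genes. RPLP2 stood at 389, 416, 392 and 397 CPM in knockdown and 351, 350, 363 and 365 CPM in control libraries. Its groups did not overlap, none of its sequence is shared, and it rose by 0.16 ± 0.0338 (SE) on the log2 scale (edgeR adjusted p 0.00164). RPLP0 stood at 2106, 2163, 2153 and 2149 CPM in knockdown and 2018, 2018, 2102 and 2055 CPM in control libraries. Its groups did not overlap either, but the change of 0.07 did not pass in the main edgeR fit of all libraries (edgeR adjusted p 0.0919). RPLP0 passed without knockdown replicate 1 (edgeR adjusted p 0.0068). With all libraries it passed under the offsets corrected for GC content and length (edgeR adjusted p 0.0349) and in all 3 limma fits (limma adjusted p 0.0175 to 0.0262). RPLP1 stood at 990, 1193, 1082 and 1125 CPM in knockdown and 990, 943, 1060 and 1092 CPM in control libraries (log2 change 0.10, edgeR adjusted p 0.150), with overlap. RPL12 stood at 1285, 1402, 1319 and 1396 CPM in knockdown and 1347, 1301, 1190 and 1280 CPM in control libraries, also with overlap (log2 change 0.08, edgeR adjusted p 0.142), and it rose by 0.10 without knockdown replicate 1 (edgeR adjusted p 0.0114).

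Around the peptide exit tunnel 3 of 9 genes rose (RPL23A, RPL31 and RPL39) and RPL17 fell, against 15.0% and 15.6% of all tested genes. The RPL31 call (log2 change 0.11) was lost without knockdown replicate 2 or 3 or any of control replicates 1 to 3 (highest adjusted p 0.120). RPL23A, a docking site for the signal recognition particle, stood at 779, 781, 778 and 763 CPM in knockdown and 705, 700, 730 and 729 CPM in control libraries (log2 change 0.11, edgeR adjusted p 0.00782), with 57.1% of its sequence shared. RPL39 (identifier 6170), a small protein inside the tunnel, stood at 492, 465, 436 and 448 CPM in knockdown and 381, 357, 412 and 435 CPM in control libraries. The lowest knockdown library and the highest control lay next to each other, and knockdown replicate 1 was the highest. RPL39 rose by 0.22 ± 0.0521 (SE) on the log2 scale (edgeR adjusted p 0.00457), a call that did not pass without knockdown replicate 1 (0.18, edgeR adjusted p 0.102). RPL26, at the tunnel mouth, stood at 1364, 1491, 1387 and 1473 CPM in knockdown and 1448, 1425, 1408 and 1393 CPM in control libraries (0.01, edgeR adjusted p 0.850), and its sign turned without knockdown replicate 2 or 4. RPL22 had a log2 change of 0.00 (edgeR adjusted p 0.966).

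RPL5 and RPL11 bind the 5S ribosomal RNA and, when free, inhibit MDM2, the ligase that degrades p53. RPL5 stood at 1404, 1397, 1326 and 1329 CPM in knockdown and 1379, 1318, 1332 and 1344 CPM in control libraries (log2 change 0.02, edgeR adjusted p 0.633). RPL11 stood at 720, 748, 733 and 782 CPM in knockdown and 792, 733, 709 and 712 CPM in control libraries (0.02, edgeR adjusted p 0.759), and its change was below 0 without knockdown replicate 4. The groups overlapped in both genes, and neither passed in any of the 8 fits that left out a library.

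**Figure D3:**
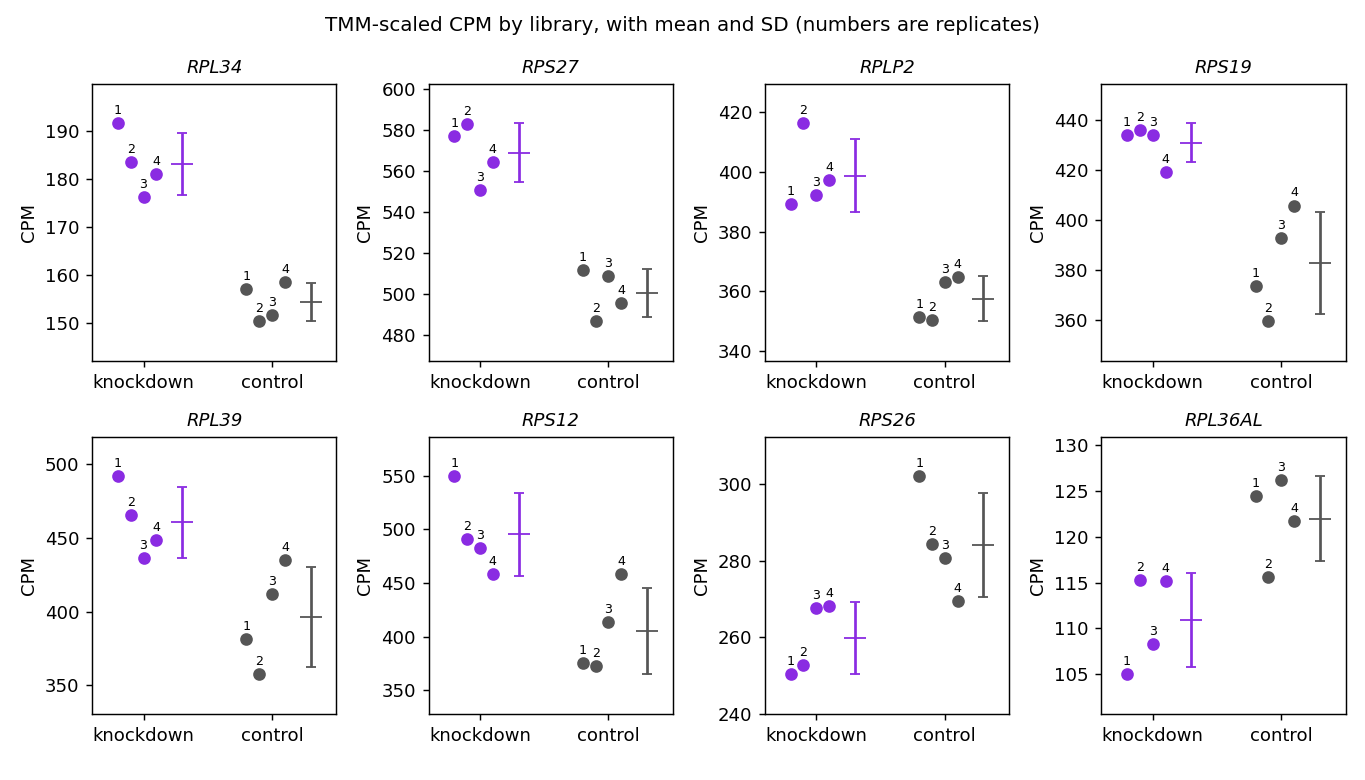
TMM-scaled CPM in each library for 6 genes that rose and 2 that fell, with replicate numbers, means and SD; the axes do not start at 0. The groups do not overlap except in RPS12, where control replicate 4 (458 CPM) is level with knockdown replicate 4 (458 CPM).

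The falls were RPS26, RPL36AL and RPL17. RPS26 (identifier 6231), a mRNA exit channel protein and a Diamond-Blackfan anaemia gene, stood at 250, 253, 268 and 268 CPM in knockdown replicates 1 to 4, against 302, 284, 281 and 269 CPM in controls 1 to 4. The groups did not overlap, although control replicate 4 lay next to knockdown replicates 3 and 4. RPS26 had a log2 change of -0.13 ± 0.0399 (SE, edgeR adjusted p 0.0194), 27.1% of the sequence is shared, and the call was lost without knockdown replicate 2 or control replicate 1 or 2 (highest adjusted p 0.0931). With all libraries the call was also lost in all 3 limma fits (limma adjusted p 0.0560 to 0.0999).

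RPL17, a protein of the exit tunnel, stood at 18.8, 21.1, 19.9 and 19.8 CPM in knockdown and 20.8, 22.2, 24.7 and 22.9 CPM in control libraries. Knockdown replicate 2 lay above control replicate 1. RPL17 had a log2 change of -0.18 ± 0.0665 (SE, edgeR adjusted p 0.0424), and the call was lost without knockdown replicate 3 or 4 or control replicate 2, 3 or 4 (highest adjusted p 0.164). With all libraries the call was also lost with no filter (edgeR adjusted p 0.0540) and with upper quartile scaling (edgeR adjusted p 0.0532). It was lost as well in the limma fit with no minimum FPKM (limma adjusted p 0.0849). In GENCODE v29 the read-through gene RPL17-C18orf32, which was not analysed here, covers 24.8% of the RPL17 exon bases. RPL17 was chosen after its values were seen.

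Paralogs are copies that can stand in for a ribosomal protein or serve elsewhere. Of the 5 tested, 0 rose and 1 fell, against 15.0% and 15.6% of all tested genes. With no adjustment 0 would have passed upward in edgeR at 0.05, and DESeq2 called 0 rises and 1 fall. The gene that fell was RPL36AL (identifier 6166), an autosomal copy of the X-linked RPL36A, at 105, 115, 108 and 115 CPM in knockdown and 124, 116, 126 and 122 CPM in control libraries. Control replicate 2 lay just above knockdown replicates 2 and 4, and all other controls stood clear of the knockdown libraries. On the log2 scale its change was -0.14 ± 0.0436 (SE, edgeR adjusted p 0.0230), and the call was lost without knockdown replicate 3 or control replicate 1, 3 or 4 (highest adjusted p 0.0878). With all libraries the call was also lost in the limma fit with no minimum FPKM (limma adjusted p 0.0747).

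The ratio of paralog to partner was compared for 4 pairs by exact permutation of the libraries (two-sided, 70 assignments), for which the smallest p is 0.0286. RPS27L, a p53 target, stood at 31.2, 32.3, 29.2 and 31.5 CPM in knockdown and 31.7, 27.4, 31.7 and 29.3 CPM in control libraries, or 5.46% of RPS27 in knockdown and 6.0% in control libraries. The log2 ratio was lower by 0.13 in knockdown libraries, with ratios from -4.23 to -4.16 in knockdown and -4.15 to -4.01 in control libraries (exact permutation p = 0.0286, adjusted over 4 pairs 0.114). RPS27L itself did not pass (log2 change 0.05, edgeR adjusted p 0.578), while its partner RPS27 rose (0.18). Of the RPS27 sequence, 58.3% is shared with other genes. RPL22L1 stood at 71.3, 64.8, 67.4 and 62.4 CPM in knockdown and 62.0, 58.1, 66.1 and 68 CPM in control libraries, or 20.9% and 20.1% of RPL22. The difference in its log2 ratio was 0.06 (exact permutation p = 0.514, adjusted 0.514). For RPL26L1 to RPL26 it was 0.06 (exact permutation p = 0.400, adjusted 0.514), and for RPL7L1 to RPL7 it was -0.08 (exact permutation p = 0.200, adjusted 0.400). A single pair at the smallest p cannot go below an adjusted 0.114 over 4 pairs, so this test cannot decide whether the RPS27L ratio differed.

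Not every member was well counted. RPL36A held 9, 5, 6 and 5 counts in knockdown and 5, 10, 4 and 4 counts in control libraries and was not tested. RPL3L, a form known from heart and skeletal muscle, held 0 or 1 count in each library and was not tested. RPS10, a 40S head protein, held 35, 35, 48 and 38 counts in knockdown and 49, 31, 38 and 36 counts in control libraries (log2 change -0.06, edgeR adjusted p 0.873). All other members exceeded 18 CPM in every library. GENCODE v29 read-through genes cover 8.40% of the exon bases of RPL36A (RPL36A-HNRNPH2) and 39.4% of those of RPS10 (RPS10-NUDT3), and 69.6% of the RPS10 sequence is shared with other genes. The part of these overlaps in the low counts was not tested.

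Knockdown replicate 1 stood apart from the other knockdown libraries along the GC content of the transcripts. Its log2 difference from the mean of knockdown replicates 2 to 4 was below 0 in 55 of 82 members, with a median of -0.05 and a range of -0.50 (RPS19BP1) to 0.20 (RPS12). Across the 82 members this difference fell with transcript GC content (Pearson r -0.62, Spearman rho -0.51), and it did so across the 11502 other tested genes with a GC value (r -0.59, rho -0.69). These are descriptions of 1 library, and the genes share its depth and preparation.

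RPS15, a decoding site protein, showed the offset most clearly among the subunit genes. It stood at 276 CPM in knockdown replicate 1 and 386, 381 and 381 CPM in knockdown replicates 2 to 4, against 366, 364, 359 and 373 CPM in controls. Its log2 change was -0.04 (edgeR adjusted p 0.815) with all libraries and 0.07 (edgeR adjusted p 0.0239) without knockdown replicate 1, so its direction turned. RPL13 stood at 820 CPM in knockdown replicate 1 and 1012, 1033 and 996 CPM in the others, against 873, 859, 873 and 869 CPM in controls. RPL13 rose by 0.15 on the log2 scale (edgeR adjusted p 0.0423), and by 0.22 without knockdown replicate 1 (edgeR adjusted p 5.62e-11). Leaving out any other library ended the RPL13 call (highest adjusted p 0.133). With all libraries RPL13 did not pass with no filter (edgeR adjusted p 0.0894) or in the limma fit with no minimum FPKM (limma adjusted p 0.127).

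RPL3, which sits near the peptidyl transferase centre, stood at 1443 CPM in knockdown replicate 1 and 1800, 1737 and 1753 CPM in the others, against 1548, 1516, 1556 and 1612 CPM in controls. Its log2 change was 0.11 with all libraries (edgeR adjusted p 0.122) and 0.18 without knockdown replicate 1 (edgeR adjusted p 2.29e-08). With all libraries and the corrected offsets RPL3 passed as well (edgeR adjusted p 0.0212). RPS19BP1 stood at 32.3 CPM in knockdown replicate 1 and 47.1, 45.5 and 44.3 CPM in the others, against 38.5, 35.7, 37.4 and 40.0 CPM in controls. Its log2 change was 0.16 (edgeR adjusted p 0.200) with all libraries and 0.27 (edgeR adjusted p 1.03e-05) without knockdown replicate 1. RPS19BP1 also passed with all libraries and the corrected offsets (edgeR adjusted p 0.0343). These 4 genes were chosen after their values were seen.

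Split at the median GC content of the members, 50.3%, the 41 members above it gave 13 rises and 0 falls with all libraries and 30 rises and 1 fall without knockdown replicate 1. The 41 at or below it gave 10 rises and 3 falls, and 13 rises and 3 falls without that library. Over all tested genes 15.0% rose and 15.6% fell with all libraries, and 21.2% and 21.5% without that library. The log2 change itself was nearly flat against GC content over all libraries (r 0.12, rho 0.15) and sloped upward without knockdown replicate 1 (r 0.35, rho 0.35). Across the 11502 other tested genes with a GC value it also sloped upward without that library (r 0.14, rho 0.20). With all libraries their values were r 0.026 and rho 0.029. Without that library every remaining knockdown library stood above all controls for 32 members and below them for 2, against 21.5% and 21.9% of all tested genes.

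**Figure D4:**
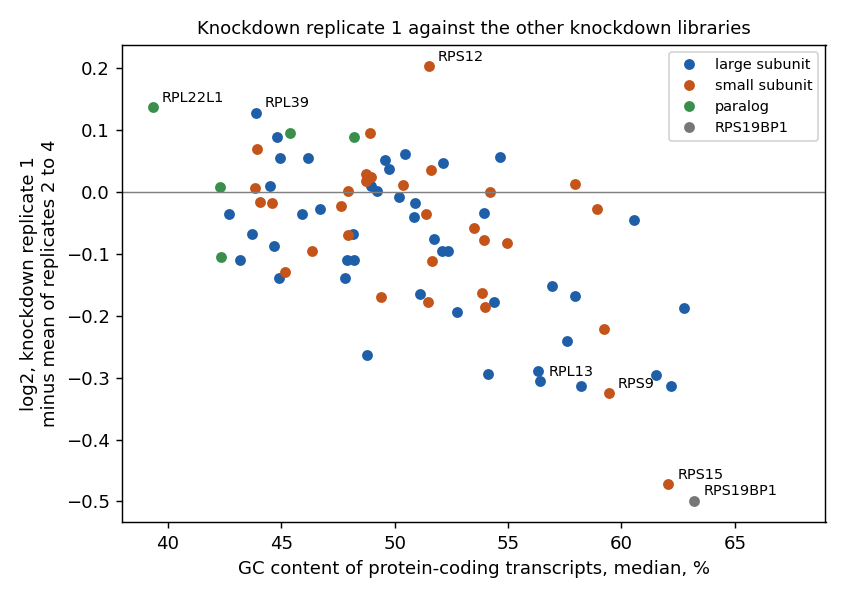
Log2 difference between BOLA3-L knockdown replicate 1 and the mean of knockdown replicates 2 to 4, against the median GC content (%) of each member's protein-coding transcripts. Points lie lower toward high GC content, down to RPS15 (-0.47) and RPS19BP1 (-0.50), with RPS12 (0.20) highest.

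The members moved together between libraries of the same group. Knockdown replicate 2 was the highest knockdown library for 53 of 82 members (64.6%), against 17.7% of all tested genes. Control replicate 2 was the lowest control for 60 members (73.2%), against 24.9% of all tested genes, and control replicate 4 was the highest for 44 (53.7%, against 26.1%). Among the 23 members that rose, control replicate 2 was lowest in 20 and control replicate 4 highest in 17. The members are therefore not separate measurements of the difference between groups.

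Within groups the members varied little. The median coefficient of variation over members was 3.94% in knockdown and 3.36% in control libraries, against 6.63% and 4.31% over all tested genes, and 2.81% against 3.98% among knockdown replicates 2 to 4. Beside the low-count genes, the highest values among controls were those of RPS29 (13.4%), RPS12 (9.94%), RPS21 (9.17%) and RPL39 (8.59%). RPS21, at the mRNA exit channel, stood at 250, 261, 252 and 238 CPM in knockdown and 203, 209, 228 and 248 CPM in control libraries. Its log2 change of 0.17 (edgeR adjusted p 0.0164) did not pass without knockdown replicate 1 or 2 or control replicate 1 or 2 (highest adjusted p 0.145). With all libraries RPS21 did not pass in the limma fit with no minimum FPKM (limma adjusted p 0.0650).

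Levels between genes can be compared only per length, and the deposited FPKM values depend on the length that the authors gave each gene. RPS2, a protein at the mRNA entry, had the highest mean, at 2900, 3341, 3339 and 3395 FPKM in knockdown and 3312, 3369, 3278 and 3146 FPKM in control libraries. RPL7A followed with a mean of 2284 FPKM over the 8 libraries and RPL41, the shortest ribosomal protein, with 2151 FPKM. None of these 3 passed the edgeR test with all libraries. RPL7A lay at the threshold (log2 change 0.08, edgeR adjusted p 0.0505). It passed without knockdown replicate 1 (edgeR adjusted p 0.000368), in DESeq2 (adjusted p 0.0499), with no filter (edgeR adjusted p 0.0488), with at least 1 CPM in 4 libraries (0.0483), with upper quartile scaling (0.0389), with the corrected offsets (0.0112) and in all 3 limma fits (limma adjusted p 0.0197 to 0.0319). The changes of RPS2 (-0.03) and RPL41 (-0.01) were above 0 without knockdown replicate 1. The lowest means were those of RPS10 (1.43 FPKM), RPL36A (0.241 FPKM) and RPL3L (0.0044 FPKM).

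The lengths that fit the FPKM values ran from 390 to 7573 bp. They were at least 2 times the median length of the GENCODE protein-coding transcripts for 30 of the 84 members and at least 5 times for 9. RPL37 was given 7573 bp where those transcripts have a median of 637 bp, and RPS29 was given 7472 bp where they have 582.5 bp. On CPM per kilobase of the GENCODE length, RPL37 ranked 11 among the members, against 66 by FPKM, RPS3 ranked 4, against 32, and RPS2 stayed at rank 1. The length is the same in both groups, so it does not enter the change of a gene.

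Ribosomal protein genes have many processed pseudogenes and near copies. At least 50% of the 75-base windows also occurred in other annotated transcripts for 13 members, and none did for 21. Of the 13, all tested, 3 rose (RPL23A, RPS3A and RPS27). Of the 20 tested members with no shared window 5 rose, and of 58 with less than 25% shared 20 rose. Genes in the first of these sets are uncertain, since the treatment of reads that match several places is not stated in those sources. Over all tested members 28.0% rose, against 15.0% of all tested genes. Whether shared sequence goes with the change was not tested.

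Of 18 members linked to Diamond-Blackfan anaemia, an inherited failure of red cell production, 4 rose (RPL31, RPS19, RPS27 and RPS28) and RPS26 fell, against 15.0% and 15.6% of all tested genes, with a median log2 change of 0.02. The count that rose was 2 without knockdown replicate 2 or 3 or control replicate 1 or 2, where RPL31 and RPS28 did not pass, and the fall of RPS26 was lost in 3 of these 4 fits. Of 7 proteins near the peptidyl transferase centre and core of the large subunit 0 passed in the main edgeR fit (2 had p under 0.05 before adjustment, both upward, and DESeq2 called 0), and 4 rose without knockdown replicate 1. Over all tested genes 21.2% rose without that library.

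Other genes that build ribosomes and drive translation were described beside the members. Over 301 tested genes of 9 lists, with FAU and RACK1 among them, 15 rose (4.98%) and 58 fell (19.3%), with a median log2 change of -0.04, against 15.0% and 15.6% of all tested genes. The share that fell thus lay near that of all genes, and the share that rose lay under it. Without knockdown replicate 1, 36 rose and 85 fell, against 21.2% and 21.5% of all genes, and without each other library 11 to 16 rose and 40 to 57 fell. Of 57 factors of small subunit assembly 0 rose in edgeR (3 before adjustment, 0 by DESeq2) and 10 fell (17.5%), with a median of -0.05, among them the processome proteins WDR36 (-0.31) and BMS1 (-0.28) and RRP12 (-0.21). Without knockdown replicate 1, 6 of the 57 rose and 17 fell, and without control replicate 3, 0 rose and 6 fell. Of 66 factors of large subunit assembly 9 fell (13.6%), with a median of -0.05, and 17 without knockdown replicate 1. The 9 falls include nucleolin (NCL, -0.30), nucleophosmin (NPM1, -0.17) and the helicase DDX24 (-0.18). NOP53 (0.19) rose, a call that held only without knockdown replicate 1 or control replicate 1 among the 8 fits that left out a library (highest adjusted p 0.0913). NCL stood at 1046, 1157, 1094 and 1145 CPM in knockdown and 1390, 1338, 1401 and 1356 CPM in control libraries (edgeR adjusted p 2.71e-06), with a gap between the groups.

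Of 17 proteins of the small nucleolar particles, which modify ribosomal RNA, 4 fell (23.5%) and 0 rose in edgeR (1 before adjustment, 1 by DESeq2), with a median of -0.04, and 2 fell without control replicate 1. NOP56 (-0.18), NOP10 (-0.18) and PIH1D1 (-0.22) were the falls with the smallest p, and the PIH1D1 call was lost without control replicate 1 (adjusted p 0.0588). With all libraries the PIH1D1 call was also lost in the limma fit with no minimum FPKM (limma adjusted p 0.109). Of 22 genes of ribosomal RNA transcription 5 fell (22.7%), with a median of -0.04, among them the polymerase I subunits POLR1F (-0.18) and POLR1A (-0.12), and the shared subunit POLR2H (0.14) rose. The count that fell was 2 without any of control replicates 1 to 3 and 3 without control replicate 4 or any of knockdown replicates 2 to 4, and without knockdown replicate 1, 3 rose. The POLR1A call was lost without control replicate 2 or 3 (highest adjusted p 0.0874). With all libraries the POLR1A call was also lost in all 3 limma fits (limma adjusted p 0.0662 to 0.0880). POLR1F did not pass in the limma fit with no minimum FPKM (limma adjusted p 0.0759). Of 18 chaperones and importins of ribosomal proteins, PDCD2 (0.17), which escorts RPS2, rose, and the importin IPO7 (-0.31) and BCCIP (-0.16) fell, with a median of 0.01. Without knockdown replicate 1, 4 of them rose and 5 fell.

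Of 41 initiation factors 11 fell (26.8%) and 4 rose (9.76%), with a median of -0.02, and 7 rose without knockdown replicate 1. EIF4G2 (-0.23), EIF2S2 (-0.20) and EIF3B (-0.20) were the falls with the smallest p, and the rises were EIF2S3, EIF3H, EIF3I and EIF3L. Of 10 elongation factors EEF1G (0.10, edgeR adjusted p 0.0169) rose and 0 fell (2 before adjustment, 0 by DESeq2), with a median of -0.02, and 3 rose and 2 fell without knockdown replicate 1. The EEF1G call was lost without knockdown replicate 2 or control replicate 2 (highest adjusted p 0.0616). EIF5A (-0.10) and EIF5A2 (-0.33) did not pass (edgeR adjusted p 0.0608 and 0.0987), but EIF5A2 fell without knockdown replicate 1 (edgeR adjusted p 0.0095), and EIF5A fell without knockdown replicate 4 (edgeR adjusted p 0.0472) and with the corrected offsets (edgeR adjusted p 0.002). Of 27 genes of ribosome rescue and dormancy 3 rose (11.1%), HABP4 (0.37) among them, and 6 fell (22.2%), among them G3BP1 (-0.29) and PELO (-0.27), with a median of -0.02. Without knockdown replicate 1, 5 rose and 8 fell.

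Of 42 regulators of ribosomal protein synthesis 11 fell (26.2%) and 4 rose (9.52%), with a median of -0.04, while 7 fell without control replicate 2 and 2 rose without control replicate 3. The mTORC1 inhibitor DDIT4 stood at 179, 182, 180 and 179 CPM in knockdown and 235, 232, 243 and 250 CPM in control libraries (log2 change -0.42, edgeR adjusted p 9.07e-08). The translation repressor EIF4EBP2 stood at 93.0, 81.3, 82.7 and 88.2 CPM in knockdown and 125, 120, 124 and 122 CPM in control libraries (-0.51, edgeR adjusted p 1.26e-07). Both were lower in every knockdown library than in any control. Regulators on both sides of mTORC1 were among the calls. RHEB (-0.22), the GTPase that activates mTORC1, the S6 kinases RPS6KB1 (-0.31) and RPS6KB2 (-0.17), RPS6KA3 (-0.19), EIF4EBP1 (-0.30), the mTORC1 inhibitor TSC1 (-0.15), MXD1 (-0.26), LARP1 (-0.10) and YY1 (-0.18) fell as well. The rises were MYCL (0.61), a member of the MYC family, the mTORC1 inhibitor DEPTOR (0.82), LARP1B (0.17) and TBP (0.21). Leaving out a library ended the call in 7 of 8 fits for RPS6KB2, in 5 for TSC1 and DEPTOR, in 4 for LARP1, in 3 for MXD1 and in 1 for LARP1B. The difference between these lists and the ribosomal protein genes was not tested.

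**Figure D5:**
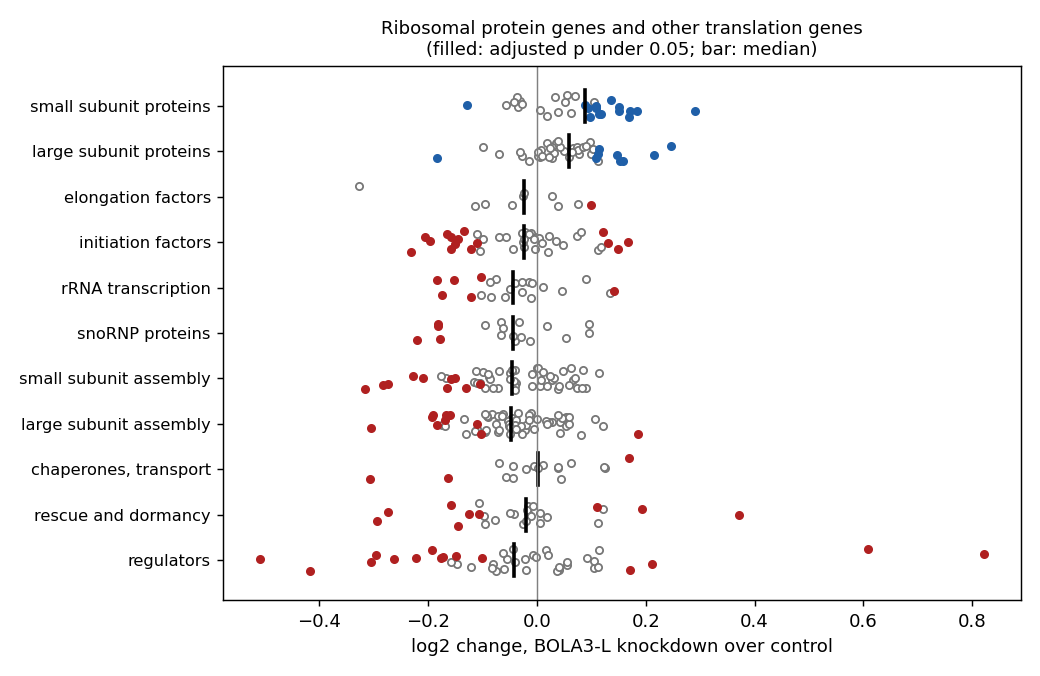
Log2 change (BOLA3-L knockdown over control) of each tested gene in the 2 sets of subunit proteins and in 9 lists of other translation genes, filled where the adjusted p was under 0.05, with the median as a bar. The medians of the small (0.09) and large (0.06) subunit proteins lie above 0, and those of both assembly lists lie below it (-0.05 each).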

How the data were processed

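RNA of KYSE150 cells was read as 150 bp paired-end polyA libraries on genome build hg38, per the labels and the submitters' processing notes; fastp filtering is stated in the series' design text, with aligner, counter and annotation not given in the sources used here. 1 deposited table holds raw counts per gene. Another holds FPKM values that the authors made, and all 110558 values above 0 equal the count scaled by library total and 1 length per gene (tolerance 1e-06). Depth was 31178036 to 35147860 counts. No deposited value column was left unmapped.

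TMM factors and filterByExpr were applied to the counts (11841 genes kept), and 4 knockdown were compared with 4 control libraries by edgeR's robust quasi-likelihood F-test, adjusted by Benjamini-Hochberg over all tested genes at 0.05. The SE is the absolute log2 change over the square root of F. CPM are TMM-scaled. Errors cover the spread between libraries, and intervals from depth cover counting error only. No test was made of a list as a whole. GC content, length, read-through overlap and shared 75-base windows (step 25) came from GENCODE v29, and promoters and coordinates from RefSeq on GRCh38.p14.

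The members and lists were chosen with earlier results of these data known. The rule for named genes took 13 set members, the paralogs, the 6 smallest p in each direction among other called members without overlap, the 3 highest and 3 lowest by mean FPKM, FAU, RACK1, BOLA3, and 3 genes per other list. Some genes that the rule took are not reported here. RPS12, RPS15, RPL17, RPL13, RPS19BP1, RPL3, RPS21, RPS28, RPS18, RPS25, RPL31 and RPL12 were added after their values were seen, as were the regulators beyond DDIT4, EIF4EBP2 and MYCL.

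Alternatives were RLE and upper quartile scaling, TMM without ribosomal protein genes, a replicate block, DESeq2, no filter, at least 1 CPM in 4 libraries, leaving out each library, and limma on log2 FPKM (pseudocount 1 or 0.1 with at least 0.5 FPKM in 4 libraries, or 1 with no minimum). Offsets corrected for GC content and length, and both these offsets and TMM without ribosomal protein genes without BOLA3-L knockdown replicate 1, were chosen after seeing the data. On simulated data edgeR recovered 64%, 92%, 96% and 100% of planted 1.25, 1.5, 2 and 3-fold changes among 11841 genes and called 14 unchanged genes. The largest member change, that of RPS12 at 1.22-fold, was smaller than every planted change, so these shares do not cover the member changes. No library was simulated to deviate along GC content. Tools were edgeR 4.0.16, DESeq2 1.42.0 and limma 3.58.1 in R 4.3.3, and pandas 2.3.3, scipy 1.17.1, numpy 2.4.6 and matplotlib 3.10.9 in Python 3.11.15.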

Additional observations from a re-analysis of the deposited data

Results flagged for a closer look

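Among 138 groups of 4 libraries (the named genes in each condition), 13 had a library whose gap to the nearest other, divided by the range of the group, exceeded Dixon's 95% critical value. For independent groups taken without regard to their values, chance gives about 1 in 20. These groups include genes chosen after their values were seen, RPS15 among them, and genes of a library can move together. That rate therefore does not apply to this count. Of the 13, 6 were BOLA3-L knockdown replicate 1.

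In that library RPS15 stood at 276 CPM (381 to 386 in the other knockdown libraries), RPS2 at 2709 CPM (3131 to 3193), EIF5A at 712 CPM (790.1 to 801), EIF3B at 372 CPM (424 to 430) and RRP12 at 155 CPM (177 to 180), all below the others. EIF4G2 stood at 1234 CPM there, above the other knockdown libraries (1136 to 1142). The library stands apart along transcript GC content, as described above, and the part of GC content in these values was not tested.

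The remaining flags fell in other libraries. In BOLA3-L knockdown replicate 4, RPS19 stood at 419 CPM (434 to 436 in the others) and RPL23A at 763 CPM (778 to 781). PDCD2 stood at 95.3 CPM in knockdown replicate 3 (100.3 to 101 in the others). Among controls, POLR2H stood at 129.9 CPM in replicate 4 (137 to 138 in the others), BMS1 at 214 CPM in replicate 2 (206 in the others), RRP12 at 203 CPM in replicate 1 (197 to 198) and HABP4 at 29.5 CPM in replicate 1 (31.3 to 31.6). These calls of RPS19, RPL23A, POLR2H, BMS1, RRP12, PDCD2 and HABP4 held in all 8 fits that left out a library.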

How the results depend on the processing

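Most values kept their direction and their side of the threshold: of the 884 values of named genes under alternatives other than leaving out 1 library, 816 did. The count of members that rose, 23 in the fit described, was 35 with offsets corrected for GC content and length, 46 with these and without knockdown replicate 1, 43 with TMM without ribosomal protein genes and without that library, and 10 to 43 when each library was left out. The count that fell, 3, was 0 with limma and no minimum, 5 with the corrected offsets and 1 to 4 when each library was left out. Apart from the fit without knockdown replicate 1, the share of all tested genes called in these alternatives is not given here. For large subunit genes the count that rose, 8, was 13 in both limma fits with a minimum, 18 and 28 with the corrected offsets with and without knockdown replicate 1, 25 with TMM without ribosomal protein genes and without it, and 4 to 25 over the left-out libraries; for small subunit genes, 15, it was 6 to 17. In the other translation lists the rises, 15, were 34 and 38 with the corrected offsets, 38 with TMM without ribosomal protein genes and without knockdown replicate 1, and 11 to 36 over the left-out libraries, and the falls, 58, were 34 with limma and no minimum. Signs turned, without a call unless an adjusted p is given, for RPL7L1 (0.00147 and 0.00145 in the limma fits), RPL41 (0.00181 in the limma fits and, without knockdown replicate 1, 0.0504 with TMM without ribosomal protein genes and 0.0636, adjusted p 0.0174, with the corrected offsets), RPS2 (0.0210 with that TMM) and RPS15 (0.0709, adjusted p 0.0204, with that TMM and 0.0239 with those offsets). Over the left-out libraries the log2 changes that turned sign ran from -0.00550 to 0.0547 for RPL11, -0.0149 to 0.0394 for RPS6, -0.0216 to 0.0313 for RPL22, -0.0111 to 0.0331 for RPL26, -0.0415 to 0.00264 for RPL7L1, -0.163 to 0.0997 for RPS10, -0.0494 to 0.0485 for RPL41, -0.0582 to 0.0191 for RPS2 and -0.0777 to 0.0690 for RPS15. The replicate numbers did not pair the libraries (correlations of deviations 0.00501, 0.00017, 0.0876 and -0.0444), and with the replicate block 18 members rose and 3 fell. The cause of these moves was not tested.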
